A study of Rattus norvegicus with 24 samples.

Results

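The intercalated disc is the junction that joins heart muscle cells end to end. Genes coding for its proteins were followed in rat myocardium after surgically made mitral regurgitation (MR), a leak of the mitral valve. The genes were taken by name, and 7 of the 10 on the list had a row in every table used here, out of 10797 genes listed in any table: Gja1, Tjp1, Cdh2, Jup, Pkp2, Dsc2 and Des. Dsp, Dsg2 and Ctnna3 were not analysed here. The study has 24 libraries from Sprague-Dawley rats. In the MR groups a mitral leaflet was perforated through a left thoracotomy, and tissue was taken 2 weeks (n = 4), 10 weeks, 20 weeks and 40 weeks (n = 5 each) later. Sham surgery left the leaflet unperforated, and its libraries are from 2 weeks (n = 5). The labels give no age, sex or heart chamber, and nothing says that each library is a separate animal, so p-values measure the spread between these libraries, which may be technical. All Sham libraries are from 2 weeks, so at 10, 20 and 40 weeks the length of MR and the age of the rats cannot be told apart.

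In the disc, adherens junctions built on N-cadherin anchor the contractile apparatus of neighbouring cells, desmosomes tie their intermediate filaments together, and gap junctions of connexin channels pass the electrical impulse. Cadherins span the gap between cells, and armadillo proteins such as plakoglobin and plakophilin-2 link the cadherin tails to the cytoskeleton. Inherited defects of the desmosome are known as a cause of arrhythmogenic cardiomyopathy, and connexin 43 is known to leave the disc for the sides of the cell in failing hearts.

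Libraries held 7688789 to 12097814 reads on listed genes. Dsc2 had the fewest reads of the 7 genes, 106 to 291 in a library, so its values are the least precise. The other genes had at least 622 reads in every library. Of 12 cardiomyocyte markers 11 were measured in every table. MR at 40 weeks stood apart from the other times: 47.3% of all genes tested passed against Sham there, beside 0%, 0.168% and 0.0698% at 2, 10 and 20 weeks.

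At 40 weeks Gja1, Cdh2 and Tjp1 rose above Sham, and at 2, 10 and 20 weeks none of the 7 genes passed. The largest differences were those of Gja1, which encodes connexin 43, the main gap junction protein of the working ventricle, and Cdh2, which encodes N-cadherin. Jup, Pkp2 and Des had positive fold changes at 40 weeks that did not pass, and Dsc2 was close to Sham. The 3 rises of 7 genes stand beside 16.3% of all genes that rose and 30.9% that fell in this comparison. Levels are normalised read counts as deposited. Fold changes are log2 values of MR over Sham with their SE, computed from log2(value + 1), so low genes changed by more than their fold change says. A gene is said to have passed where limma gave it a p under 0.05 after Benjamini-Hochberg adjustment over all genes tested.

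Promoter sequences are shown for both of the genes that rose at 40 weeks and had an entry, and for Dsc2, which went the other way between 20 and 40 weeks. They are the 250 bases before the RefSeq gene start on GRCr8, a later build than the one used for the counts. Of the 7 genes 5 had such an entry. Capitals mark matches on either strand to any of 6 motifs. The AP-1 motif was searched with the letters TGANTCA. The motif of TEAD factors, partners of Yap1, was searched with the letters CATTCC, which occur in 12.1% of windows and in none of these 3. The SP1 motif was searched with the letters GGGCGG. The GATA motif was searched with the letters AGATAA. The E-box was searched with the letters CANNTG, and MEF2 by its usual consensus.
Gja1 promoter, chr20:36302314-36302563, + strand: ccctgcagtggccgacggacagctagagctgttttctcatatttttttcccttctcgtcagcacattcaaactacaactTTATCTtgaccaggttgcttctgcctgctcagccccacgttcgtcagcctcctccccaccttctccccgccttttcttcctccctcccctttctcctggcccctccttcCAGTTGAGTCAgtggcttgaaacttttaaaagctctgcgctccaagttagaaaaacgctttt
Tjp1 promoter, chr1:128325361-128325610, - strand: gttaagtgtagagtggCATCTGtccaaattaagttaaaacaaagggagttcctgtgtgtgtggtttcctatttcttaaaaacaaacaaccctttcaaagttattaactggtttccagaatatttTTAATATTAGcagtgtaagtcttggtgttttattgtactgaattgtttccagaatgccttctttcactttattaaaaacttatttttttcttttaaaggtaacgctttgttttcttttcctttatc
Dsc2 promoter, chr18:11757467-11757716, - strand: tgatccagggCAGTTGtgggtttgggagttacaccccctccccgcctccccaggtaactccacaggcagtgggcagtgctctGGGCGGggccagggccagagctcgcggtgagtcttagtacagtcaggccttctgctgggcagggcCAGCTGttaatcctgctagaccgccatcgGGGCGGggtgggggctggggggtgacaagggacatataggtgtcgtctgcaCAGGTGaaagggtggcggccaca
The Gja1 window held 1 AP-1 match, which overlapped the E-box match, and 1 GATA match. AP-1 letters occur in 6.34% and GATA letters in 10.3% of 33469 promoter windows of the same length. The Tjp1 window held 1 MEF2 match, found in 2.96% of windows, and 1 E-box match, found in 65.5%. The Dsc2 window held 2 SP1 matches, found in 30.5% of windows, and 3 E-box matches. These matches describe the letters in the windows only.

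Gja1 lies on rn6 chromosome 20, 37876650 to 37889095, plus strand. At 40 weeks its values were 248, 306, 287, 353 and 270 in MR libraries, against 139, 149, 135, 215 and 229 in Sham libraries. Every MR library lay above every Sham library, as for 9.06% of all genes tested. The means were 293 ± 39.9 in MR and 173 ± 45.0 in Sham (SD, n = 5 each), a rise of 0.78 ± 0.18 SE (limma adjusted p = 0.00295). At 10 weeks the direction was the opposite. Gja1 was at 107, 116, 107, 101 and 173 in MR libraries, against 141, 153, 139, 214 and 235 in Sham libraries, so that 4 of 5 MR libraries were under the whole Sham range. The difference was −0.54 ± 0.19 SE and did not pass (limma adjusted p = 0.276). At 2 weeks Gja1 was at 72.6, 199, 138 and 200 in MR libraries and its fold change was −0.32 ± 0.29 SE. At 20 weeks the fold change was −0.12 ± 0.19 SE, with MR libraries at 115 to 212. At both of these times the MR and Sham libraries overlapped.

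Tjp1 encodes ZO-1, a scaffold that binds the tail of connexin 43 at the rim of gap junctions. It lies on rn6 chromosome 1, 126146489 to 126211440, minus strand, inside the much longer span that the tables list for Sbk1 on the same strand, so the 2 rows may share reads. At 40 weeks it was at 58.8, 66.0, 50.6, 66.0 and 74.8 in MR libraries, against 38.1, 42.3, 43.8, 58.2 and 54.8 in Sham libraries. MR replicate 3 lay inside the Sham range and the other MR libraries lay above it. Tjp1 rose by 0.41 ± 0.15 SE (limma adjusted p = 0.0329). This call is fragile: it was lost without MR replicate 2, 4 or 5 or Sham replicate 1, 2 or 3 (adjusted p 0.0586 to 0.0846). At 2, 10 and 20 weeks its fold changes were −0.15 ± 0.17, −0.22 ± 0.14 and −0.16 ± 0.15 SE, none of which passed.

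Cdh2 lies on rn6 chromosome 18, 8146971 to 8366026, minus strand. At 40 weeks it was at 158, 192, 151, 220 and 181 in MR libraries, against 105, 90.9, 73.1, 147 and 107 in Sham libraries. The groups did not overlap, although the highest Sham library, at 147, came close to the lowest MR library, at 151. The means were 180 ± 27.7 in MR and 105 ± 27.1 in Sham (SD, n = 5 each), a rise of 0.80 ± 0.18 SE (limma adjusted p = 0.00247). Its earlier fold changes were −0.33 ± 0.24 SE at 2 weeks, −0.34 ± 0.17 SE at 10 weeks and 0.26 ± 0.16 SE at 20 weeks, and none passed. Gja1 and Cdh2 passed at 40 weeks under each of the 20 alternatives run, with fold changes of at least 0.70 for Gja1 and at least 0.68 for Cdh2.

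Of the desmosomal genes Jup, Pkp2 and Dsc2, none passed against Sham at any time on the deposited scale. Jup encodes plakoglobin, an armadillo protein shared by desmosomes and adherens junctions (rn6 chromosome 10, 88280517 to 88307133). At 40 weeks it was at 108, 110, 123, 145 and 117 in MR libraries, against 99.4, 92.6, 82.3, 110 and 124 in Sham libraries, and the groups overlapped (0.25 ± 0.14 SE, 95% interval −0.05 to 0.55, limma adjusted p = 0.151). Pkp2 encodes plakophilin-2, which clusters desmosomal cadherins (chromosome 11, 88912163 to 88972214). It was at 45.5, 56.3, 51.7, 59.0 and 49.9 in MR libraries, against 47.8, 45.8, 31.7, 47.3 and 36.7 in Sham libraries. Of the 5 MR libraries 4 lay above every Sham library, and the difference of 0.33 ± 0.14 SE missed the threshold (limma adjusted p = 0.0625), which it passed without Sham replicate 1 (adjusted p = 0.0466) or Sham replicate 4 (adjusted p = 0.0496). At 2, 10 and 20 weeks the fold changes were −0.07, −0.07 and −0.07 for Jup and −0.19, −0.05 and 0.06 for Pkp2, and none passed.

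Dsc2 encodes desmocollin-2, a desmosomal cadherin (rn6 chromosome 18, 11826705 to 11858745). Its highest fold change was at 20 weeks. At 20 weeks it was at 9.73, 11.2, 11.7, 9.32 and 9.75 in MR libraries, against 9.30, 8.89, 5.48, 7.46 and 5.38 in Sham libraries. The groups did not overlap, which held for 0.499% of genes in that direction, but the lowest MR library, at 9.32, was barely above the highest Sham library, at 9.30. The difference was 0.47 ± 0.16 SE and did not pass over all genes (limma adjusted p = 0.336). At 40 weeks Dsc2 was at 6.60, 6.31, 7.47, 7.22 and 5.98 in MR libraries, against 9.50, 8.91, 5.41, 7.67 and 5.45 in Sham libraries (−0.09 ± 0.16 SE, 95% interval −0.43 to 0.24). At 2 weeks its highest value, 14.04, was in MR replicate 1, the library in which Gja1, Cdh2 and Des were lowest.

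Des encodes desmin, the muscle intermediate filament that desmosomes anchor (rn6 chromosome 9, 82556582 to 82564288). At 40 weeks it was at 1331, 1446, 1417, 1237 and 1090 in MR libraries, against 1194, 808, 705, 1419 and 1233 in Sham libraries. The Sham libraries spread over a wide range that held 4 of the 5 MR libraries, and the difference was 0.33 ± 0.21 SE (limma adjusted p = 0.219). The fold changes at 2, 10 and 20 weeks were −0.28 ± 0.28, −0.06 ± 0.19 and 0.24 ± 0.21 SE.

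**Figure D1:**
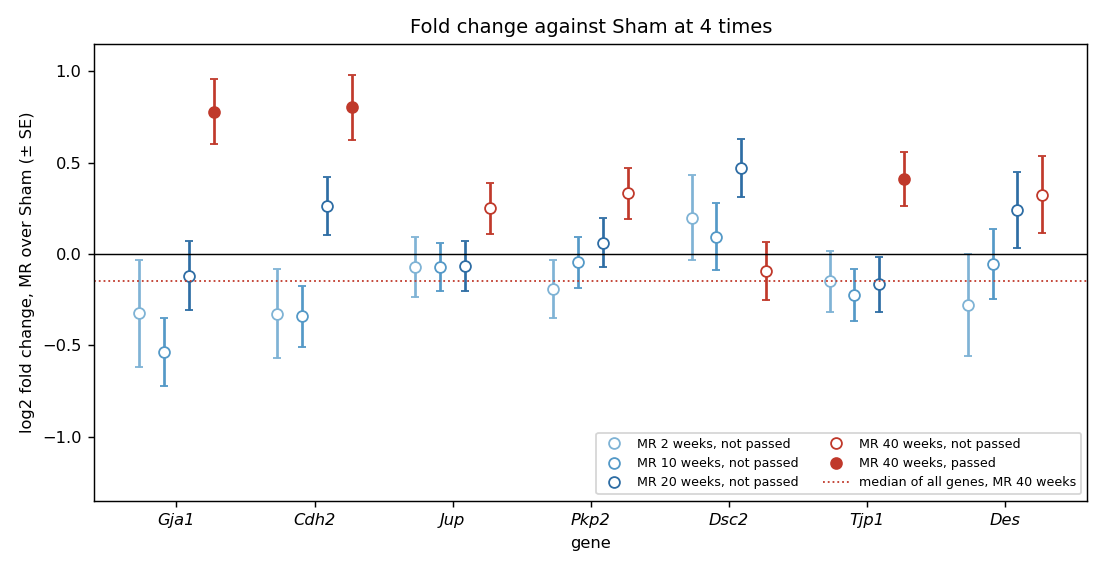
Log2 fold change of MR over Sham (vertical axis, points with SE bars) for each of the 7 genes, with the 4 times side by side in order from 2 to 40 weeks. Filled points passed at an adjusted p under 0.05, which only Gja1 (0.78), Cdh2 (0.80) and Tjp1 (0.41) at 40 weeks did, and the dotted line is the median of all genes at 40 weeks, −0.15.

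Among the 7 genes, 0 passed with limma at 2, 10 or 20 weeks, and edgeR and DESeq2 on recovered reads also called 0. At an unadjusted p under 0.05 there were 0 at 2 weeks, 1 at 10 weeks (Gja1) and 1 at 20 weeks (Dsc2), beside 5.47%, 12% and 9.49% of all genes. The fold changes at 40 weeks depend on the scale of the table. On the deposited scale the median of all genes was −0.15, so Jup, Pkp2 and Des were further above the typical gene than above 0. After median-ratio rescaling of the libraries, Jup (0.41, adjusted p = 0.0170), Pkp2 (0.49, adjusted p = 0.00633) and Des (0.48, adjusted p = 0.0406) passed as well. That made 6 of 7, and edgeR and DESeq2 also called 6. The same rescaling changed the whole comparison from 1648 rises and 3124 falls to 2391 rises and 2196 falls. Dsc2 did not pass on either scale.

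The times after MR were then compared with each other, in a fit of all 24 libraries on a common scale, which asks whether the 40-week levels also differ from earlier MR hearts. 6 of the 7 genes stood higher at 40 than at 10 weeks, all but Dsc2, beside 28.1% of all genes tested. Gja1 averaged 329 ± 45.7 in MR at 40 weeks and 111 ± 26.4 in MR at 10 weeks (SD, n = 5 each), a rise of 1.57 ± 0.23 SE (limma adjusted p = 7.55e-06). Cdh2 averaged 203 ± 35.0 at 40 weeks and 76.2 ± 11.6 at 10 weeks, a rise of 1.40 ± 0.17 SE. Tjp1 rose by 0.89 ± 0.15 SE, Des by 0.64 ± 0.19 SE, Pkp2 by 0.63 ± 0.11 SE and Jup by 0.57 ± 0.12 SE. For each of these 6 genes the 2 groups did not overlap, as for 20.9% of all genes.

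Against MR at 2 weeks the same 6 genes were higher at 40 weeks, beside 24.3% of all genes, with rises of 0.42 ± 0.13 SE for Jup to 1.23 ± 0.18 SE for Cdh2. In each of the 6 the lowest 40-week library was above the highest 2-week library, as in 17.9% of all genes. Without MR replicate 1 of the 2-week group, Jup (adjusted p = 0.0616) and Des (adjusted p = 0.0502) did not pass. With libraries centred on cardiomyocyte markers, Jup (0.11, adjusted p = 0.610), Pkp2 (0.31, adjusted p = 0.160), Tjp1 (0.35, adjusted p = 0.228) and Des (0.39, adjusted p = 0.0536) did not pass, and Gja1 (0.90) and Cdh2 (0.92) did. Over all genes this centring gave 919 rises and 3039 falls between 40 and 2 weeks, against 2428 and 2130 without it. Against MR at 20 weeks 5 genes were higher, beside 21.3% of all genes, and 1 was lower, beside 17.6%. Gja1 rose by 1.07 ± 0.23 SE, Tjp1 by 0.75 ± 0.15 SE, Cdh2 by 0.71 ± 0.17 SE, Jup by 0.49 ± 0.12 SE and Pkp2 by 0.44 ± 0.11 SE. Gja1 and Cdh2 had no overlap between these times, as in 13.2% of all genes, whereas Jup, Pkp2 and Tjp1 overlapped. Dsc2 fell by 0.41 on the log2 scale, to 7.52 ± 0.444 in MR at 40 weeks, against 10.4 ± 0.849 in MR at 20 weeks (SD, n = 5 each). Its adjusted p was 0.0480, and leaving out any single MR library of the 2 times ended the call (adjusted p 0.0540 to 0.102), although the groups did not overlap, as for 9.76% of all genes in that direction. With cardiomyocyte marker centring its fold change was −0.19 (adjusted p = 0.574). Des was at 0.26 ± 0.19 SE between 40 and 20 weeks and did not pass (adjusted p = 0.293), and with the same centring it was at 0.48 and passed (adjusted p = 0.0179). Over all genes that centring gave 2607 rises and 291 falls between 40 and 20 weeks, against 2122 and 1753 without it.

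Between 10 and 2, 20 and 2, and 20 and 10 weeks, 0 of the 7 genes passed with limma, beside 1.37%, 8.81% and 0.01% of all genes. At an unadjusted p under 0.05 there were 0, 2 (Cdh2 and Des) and 3 (Gja1, Cdh2 and Dsc2), beside 15.2%, 26.9% and 15.2%. The smallest adjusted p was that of Cdh2 between 20 and 2 weeks, with 123 ± 14.3 in MR at 20 weeks and 88.1 ± 26.0 in MR at 2 weeks (0.51 ± 0.18 SE, limma adjusted p = 0.0732). Between 20 and 10 weeks Cdh2 averaged 123 ± 14.3 in MR at 20 weeks and 76.2 ± 11.6 in MR at 10 weeks, and the 2 groups did not overlap, as for 1.64% of all genes (0.68 ± 0.17 SE, limma adjusted p = 0.201). With library weights it passed (limma adjusted p = 0.0149), a setting under which 762 of all genes passed, against 1 without it. In the order of group means Gja1 stood at 111 in MR at 10 weeks, 151 at 2 weeks, 159 at 20 weeks, 170 in Sham and 329 in MR at 40 weeks, and of the neighbouring steps only the last passed. Cdh2 stood at 76.2 in MR at 10 weeks, 88.1 at 2 weeks, 102 in Sham, 123 in MR at 20 weeks and 203 at 40 weeks, and again only the last step passed.

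**Figure D2:**
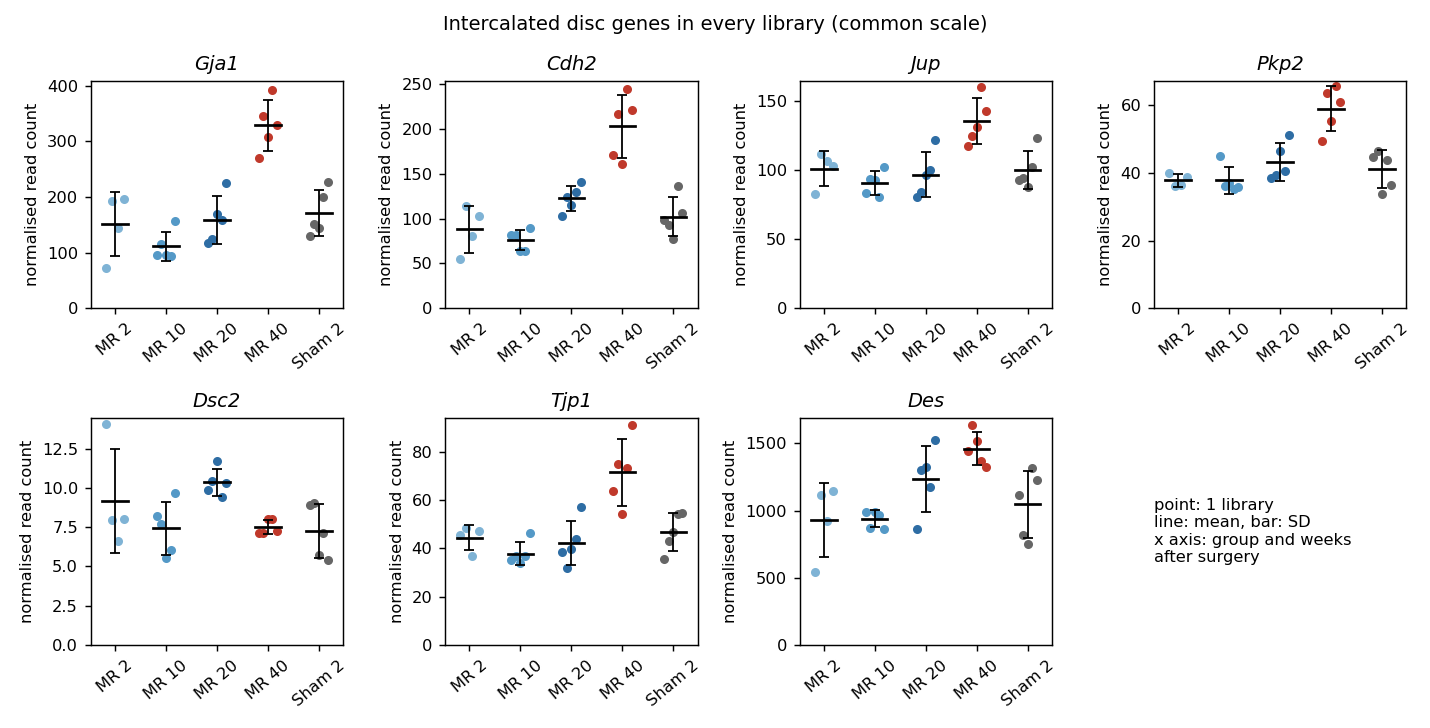
Normalised read count on the common scale (vertical axes, each from 0) of each gene in every library, by group and weeks after surgery, with the mean as a line and the SD as a bar. For Gja1 the MR libraries at 40 weeks lie between 269.0 and 392.1, above all other libraries, the highest of which is at 228. Dsc2 instead has its highest mean in MR at 20 weeks. A single MR library at 2 weeks lies higher, at 14.04, and an MR library at 10 weeks, at 9.67, lies above the lowest 20-week library, at 9.44.

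Some libraries were high or low for most of the genes. In MR at 20 weeks replicate 5 was the highest library for 6 of the 7 genes and replicate 1 the lowest for 5, and replicate 4 of MR at 40 weeks and replicate 5 of MR at 10 weeks were each the highest for 5. Replicate 1 of MR at 2 weeks, replicate 4 of MR at 10 weeks and Sham replicate 3 were each the lowest for 4. Replicate 1 of MR at 2 weeks was also the highest of its group for 2, Pkp2 and Dsc2. The matching shares over all genes were not computed. The log2 ratio of Gja1 to Cdh2 in a library does not move with the library's scaling factor, and its offset from 0 depends on gene length. It was 0.70 ± 0.13 in MR at 40 weeks (SD, n = 5), 0.53 ± 0.20 at 10 weeks, 0.34 ± 0.27 at 20 weeks and 0.73 ± 0.27 in Sham. The ratio at 20 weeks thus lay lowest, and its libraries (0.00 to 0.68) overlapped those of Sham (0.40 to 1.09). The log2 ratio of Jup to Ctnnb1, the beta-catenin gene, was 0.69 ± 0.29 in MR at 2 weeks (SD, n = 4), 1.02 ± 0.27 at 10 weeks, 0.997 ± 0.21 at 20 weeks and 0.55 ± 0.26 at 40 weeks, against 0.70 ± 0.24 in Sham (SD, n = 5 each). At each time its MR libraries overlapped those of Sham.

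Partner genes of the disc were read from lists chosen with earlier results of these data known, and are described for 40 weeks against Sham. Beside each count stand the 16.3% of all genes that rose and the 30.9% that fell. Of 19 measured genes of the adherens junction and the area composita, the mixed junction of the adult disc, 7 rose (36.8%) and 3 fell (15.8%) (median 0.35, beside −0.15 over all genes). Enah, an actin regulator, rose by 1.18 ± 0.18 SE (31.6 ± 5.01 in MR and 13.6 ± 3.84 in Sham). Ctnnd1, the p120 catenin that stabilises cadherins at the membrane, rose by 0.71 ± 0.13 SE (limma adjusted p = 7.91e-04). Afdn, the afadin scaffold of nectins, fell by 0.56 on the log2 scale. Xirp2, Nrap, Sorbs2, Pdlim5 and Tln1 also rose, and Nectin2 and Vasp fell. Ctnnb1 was at 0.40 (adjusted p = 0.0604), Ctnna1 at 0.35 (adjusted p = 0.126) and Vcl, vinculin, at 0.14 (adjusted p = 0.357). Of the 5 other desmosome and plakin genes measured Plec, the plectin linker of intermediate filaments, rose by 0.46 ± 0.13 SE, and Ppl and Macf1 fell (−0.57 and −0.36).

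Genes of the sodium channel complex at the disc stood highest as a list. Of 13 measured 7 rose (53.8%, beside 16.3% of all genes) and 0 fell (beside 30.9%), with a median of 0.65. Kcnj3 and Kcnj2, both inward rectifier potassium channel subunits, rose by 1.94 ± 0.27 SE and 1.22 ± 0.19 SE. Their levels were low: Kcnj3 was at 11.4 ± 3.52 in MR and 2.35 ± 1.55 in Sham (SD). Kcnj2 was at 2.86 ± 0.735 in MR and 0.661 ± 0.383 in Sham. Dlg1, the SAP97 scaffold, rose by 1.14 ± 0.18 SE and Ank3, the ankyrin-G that anchors sodium channels, by 0.58 (adjusted p = 0.00153).

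In the list of connexins, tight junction scaffolds and gap junction partners 2 of 17 rose (11.8%, beside 16.3% of all genes) and 6 fell (35.3%, beside 30.9%). These shares are near those of all genes, and the median was −0.15 for both. Gja3 rose to 13.6 ± 2.62 in MR, against 3.95 ± 2.43 in Sham (1.66 ± 0.25 SE), and Nedd4, a ubiquitin ligase that can act on connexin 43, rose by 0.62 ± 0.14 SE. Those that fell included Gja4 and Cldn5, which endothelial cells express, Gjc1, F11r and Cav3, the muscle caveolin (−0.84 ± 0.15 SE). Gja5 was at 0.09 (adjusted p = 0.827).

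Among intermediate filament genes and their partners 5 of 12 rose (41.7%, beside 16.3% of all genes) and 3 fell (25%, beside 30.9%), with a median of 0.08. Sync, the desmin-binding syncoilin, rose by 1.31 ± 0.21 SE, Nebl, the Z-disc nebulette, by 1.82 ± 0.34 SE and Flnc, filamin C, by 1.04 (adjusted p = 0.00189). Synm, the synemin partner of desmin, and Plec rose too. Nes (−1.08 ± 0.19 SE), Vim and Lmnb1, which are expressed outside cardiomyocytes as well, fell. In the list of beta-catenin and Hippo signalling, the pathways that read junction proteins into the nucleus, 7 of 16 rose (43.8%, beside 16.3% of all genes) and 2 fell (12.5%, beside 30.9%), with a median of 0.21. Yap1, the Hippo co-activator, rose to 16.5 ± 4.24 in MR, against 3.76 ± 1.21 in Sham (1.87 ± 0.20 SE). The kinase gene Gsk3b rose by 1.31 ± 0.20 SE, and the Hippo kinase gene Lats1 fell by 0.71 on the log2 scale. Lats2 went the other way from Lats1 and rose, and Nf2, Ctgf, Tead1 and Wwtr1 rose too. Tcf7l2 also fell.

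**Figure D3:**
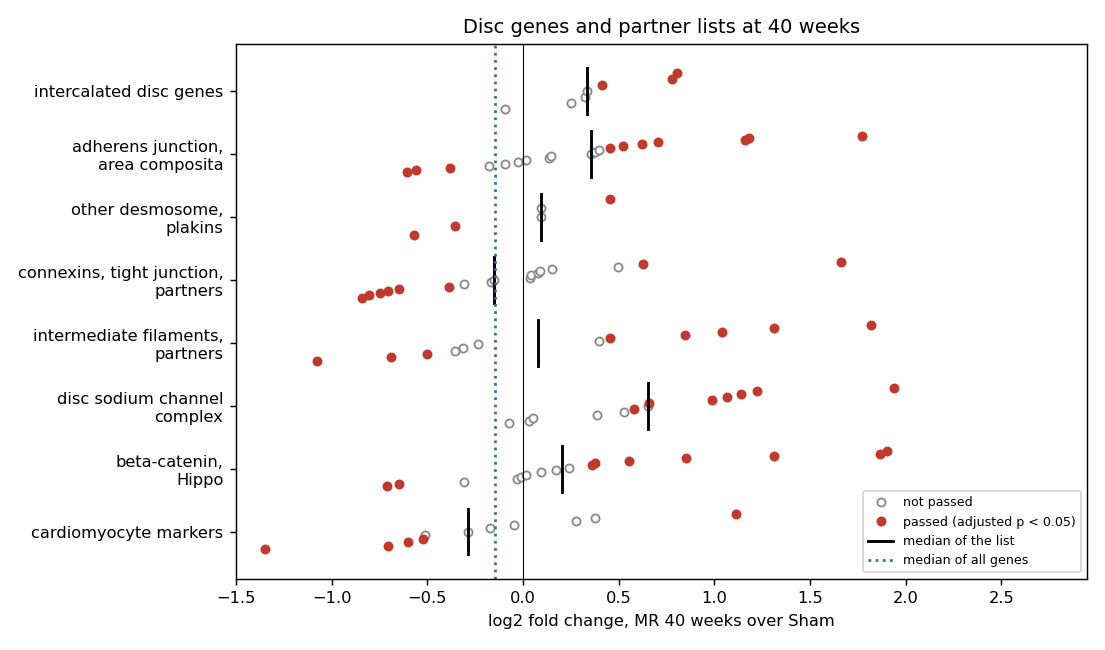
Log2 fold change of MR at 40 weeks over Sham (horizontal axis) for each measured gene of the disc genes, 6 partner lists and the cardiomyocyte markers, one row per list. Red points passed, black lines are list medians and the dotted line is the median of all genes, −0.15. The sodium channel complex has the highest median, 0.65, and the cardiomyocyte markers lie at −0.29.

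Marker lists of heart cell types are given beside these results, again with 16.3% of all genes having risen and 30.9% fallen. In bulk tissue fewer cells of a type and less RNA per cell cannot be told apart. Of 11 cardiomyocyte markers 1 rose (9.09%), the calcium release channel gene Ryr2, and 4 fell (36.4%), Myl2, Myl3, Tnnc1 and Tnni3, shares near those of all genes (median −0.29). Their summed level on the common scale was 28043 to 43390 (median 41560) in MR at 40 weeks and 41489 to 46400 (median 42914) in Sham. Of 6 adipocyte markers 3 were measured in every table, Lipe, Cfd and Fabp4, and Adipoq, Plin1 and Cidec were not. The sums of these 3 did not overlap between the groups, and no share over all genes is given for such sums. Of the 3 tested, 2 fell, Cfd and Fabp4, and the sum was 200 to 323 in MR at 40 weeks and 355 to 592 in Sham. Of 8 fibroblast markers 1 rose and 4 fell, with sums of 726 to 1060 in MR at 40 weeks and 925 to 2687 in Sham. Of 8 endothelial markers 1 rose, Cdh5, and 4 fell, with sums of 594 to 806 in MR at 40 weeks and 675 to 958 in Sham. Of 7 smooth muscle and pericyte markers 1 rose and 2 fell, with sums of 115 to 266 in MR at 40 weeks and 127 to 461 in Sham. Of 8 macrophage markers 0 rose and 3 fell, with sums of 41.0 to 105 in MR at 40 weeks and 67.2 to 133 in Sham. Of 4 atrial markers 1 rose and 1 fell, with sums of 169 to 2120 in MR at 40 weeks and 151 to 560 in Sham, and of 2 epithelial and mesothelial markers tested 1 fell. Every listed gene has reads in every library of its table, so none of these measured markers could be at 0. Their part in the disc genes' differences was not tested. With every library centred on the cardiomyocyte markers, 5 of the 7 disc genes passed at 40 weeks, Pkp2 (0.53) and Des (0.52) among them. Centring moves all genes of a library by the same amount. Over all genes it gave 1774 rises and 781 falls, against 1648 and 3124 without it.

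Fold changes at 40 weeks also moved with the length of a gene on the chromosome. Genes in the shortest quartile by genomic span had a median of −0.38, and 7.05% of them rose and 47.7% fell. In the longest quartile the median was 0.08, and 28.2% rose and 16.4% fell. At 20 weeks the medians of these quartiles were −0.0042 and −0.023. Cdh2, Tjp1 and Pkp2 are in the longest quartile, Jup and Dsc2 in the third, Gja1 in the second and Des in the shortest. Gja1 rose by 0.78 where the second quartile had a median of −0.20, and Des was at 0.33 where the shortest had −0.38. The part of gene length in these differences, and in those of the partner lists, was not tested.

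**Figure D4:**
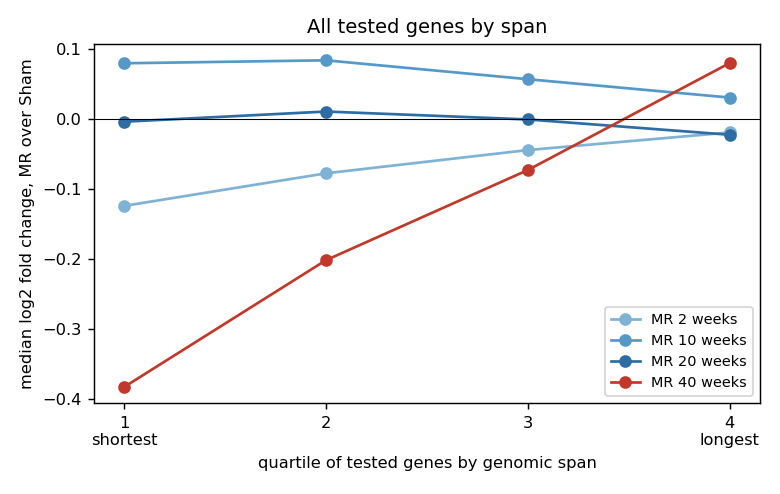
Median log2 fold change of MR over Sham (vertical axis) of all tested genes in each quartile by genomic span, from shortest to longest, with 1 line per time. The 40-week line climbs from −0.38 to 0.08 and the 2-week line from −0.12 to −0.019, and the 10-week and 20-week lines are nearly flat.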

How the data were processed

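Per the labels' protocols, RNA came from frozen myocardium by a miRNeasy kit and was sequenced with Illumina chemistry. The submitters' processing notes name Partek and rat build rn6. How reads were aligned, counted and scaled is not given in the sources used here. As files, the authors deposited 4 tables in unit signal, normalised gene counts, each with 1 MR time and the same 5 Sham libraries. Undoing 1 factor per library gave values within 0.1 of a whole read for 97.4% to 97.5% of the deposited signal values, and 7688789 to 12097814 reads on listed genes per library.

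The test was limma 3.58.1 under R 4.3.3 on log2(value + 1) (empirical Bayes along the mean trend, two-sided), for genes with a mean of at least 1, within each table. MR times were compared on 10129 genes of all tables, rescaled by median ratios, of which 9984 were tested. Checks on simulated data were run first. Alternatives were other pseudocounts, filters, scalings and library weights, edgeR 4.0.16 and DESeq2 1.42.0 on recovered reads, and leaving out each library. The 7 genes were all named, and 3 genes with the smallest p at 40 weeks from each partner list, plus others chosen after their values were seen. Members and lists were chosen with earlier results of these data known. Every listed gene has reads in every library of its table, so genes without reads in some library are not analysed here. Some genes of the partner lists are counted but not reported by name here.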

Additional observations from a re-analysis of the deposited data

Results flagged for a closer look

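The direct comparison of MR times differed for 18 values of the 7 genes, each a log2 difference on the common scale. Between 40 and 2 weeks they were 1.20 for Gja1, 1.23 for Cdh2, 0.42 for Jup, 0.62 for Pkp2, 0.66 for Tjp1 and 0.70 for Des. Between 40 and 10 weeks they were 1.57 for Gja1, 1.40 for Cdh2, 0.57 for Jup, 0.63 for Pkp2, 0.89 for Tjp1 and 0.64 for Des. Between 40 and 20 weeks they were 1.07 for Gja1, 0.71 for Cdh2, 0.49 for Jup, 0.44 for Pkp2, −0.41 for Dsc2 and 0.75 for Tjp1.

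Of 35 groups of values tested for a library that stands apart, 2 were picked out, where chance picks out about 1 in 20. Both were in MR at 10 weeks. Pkp2 was at 44.9 in replicate 1, with the next library at 36.9, and Tjp1 was at 46.1 in replicate 5, with the next library at 36.9.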

How the results depend on the processing

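Over 1158 recomputed fold changes of the 7 genes, 1061 kept their direction and side of the threshold, 23 lost the call, 24 gained it and 50 changed sign; the cause was not tested. The number of disc genes that passed at 40 weeks against Sham was 3, with 6 under median-ratio rescaling, the fit of all 24 libraries, edgeR and DESeq2, 5 with cardiomyocyte marker centring, and 2 to 4 with a library left out. With library weights 1 passed between 10 and 2 weeks (Gja1), where calls over all genes went from 137 to 1185. Between 20 and 10 weeks 2 passed with them (Cdh2 and Dsc2), where calls over all genes went from 1 to 762. With cardiomyocyte centring 2 passed between 20 and 2 weeks, both as falls (Jup −0.60, adjusted p = 0.0101, and Tjp1 −0.62, adjusted p = 0.0351, against −0.07 and −0.09 without it). Over all genes this centring gave 24 rises and 4666 falls between these times, against 400 and 480 without it. Between 40 and 2 weeks 2 passed with it (Gja1 and Cdh2), beside 919 rises and 3039 falls over all genes. With a library left out 0 to 1 passed between 20 and 2 weeks (Cdh2, adjusted p 0.0365 without MR 2 weeks replicate 2 and 0.0495 without replicate 4) and 4 to 6 between 40 and 2 weeks. The other alternatives did not change these counts by over 1.5 times.

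The sign changes concerned values that had not passed. With cardiomyocyte centring, fold changes at 2 weeks against Sham became 0.083 for Gja1, 0.083 for Cdh2, 0.34 for Jup, 0.22 for Pkp2, 0.26 for Tjp1 and 0.13 for Des. Under it Pkp2 was at −0.14 at 20 weeks and Dsc2 at 0.11 at 40 weeks against Sham. Between 10 and 2 weeks Des was at −0.15. Between 20 and 2 weeks Gja1 was at −0.40, Cdh2 at −0.019, Pkp2 at −0.35, Dsc2 at −0.33 and Des at −0.088. Between 20 and 10 weeks Jup was at −0.23, Pkp2 at −0.13 and Tjp1 at −0.18, and between 40 and 10 weeks Dsc2 was at −0.051. Library weights gave 0.0058 for Pkp2 and −0.19 for Des between 10 and 2 weeks, −0.18 for Gja1 between 20 and 2 weeks and −0.018 for Dsc2 between 40 and 10 weeks. Dsc2 at 40 weeks against Sham was at 0.046 with median-ratio rescaling, 0.070 in the fit of all libraries, 0.042 with edgeR and 0.026 with DESeq2. The fit of all libraries gave Jup 0.015 at 2 weeks.

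With single libraries left out, ranges that crossed 0 were −0.15 to 0.025 for Jup and −0.0044 to 0.34 for Dsc2 at 2 weeks. At 10 weeks they were −0.0063 to 0.18 for Dsc2, −0.13 to 0.0041 for Pkp2, −0.19 to 0.048 for Des and −0.14 to 0.0067 for Jup, and at 20 weeks −0.022 to 0.11 for Pkp2 and −0.13 to 0.0072 for Jup. Between 10 and 2 weeks they were −0.068 to 0.021 for Pkp2 and −0.17 to 0.19 for Des, between 20 and 2 weeks −0.18 to 0.29 for Gja1 and −0.20 to 0.0040 for Tjp1, between 20 and 10 weeks −0.0032 to 0.14 for Jup, and between 40 and 10 weeks −0.050 to 0.13 for Dsc2.

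Over all genes, 17 passed at 10 weeks (3 to 85 under other settings, 0 to 29 with a library left out), 7 at 20 weeks (1 to 93, and 2 to 14), 0 at 2 weeks (0 to 65, and 0) and 4772 at 40 weeks (2555 to 4958, and 4035 to 4948). Between MR times the numbers were 137 at 10 against 2 weeks (82 to 1185, and 52 to 306), 880 at 20 against 2 weeks (866 to 4690, and 394 to 1194) and 1 at 20 against 10 weeks (0 to 762, and 1 to 4). At 10 weeks 0 passed without MR replicate 1, 2 or 3 or Sham replicate 4 or 5. Depth limits Dsc2 most. No paired analysis was possible because the labels give no replicate numbers that pair MR and Sham libraries.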
